A study of Mus musculus with 23 samples.

Results

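The genes considered here are 10 members of the insulin and insulin-like growth factor signalling pathway: Igf1, Insr, Igf1r, Irs1, Irs2, Pik3r1, Pik3ca, Akt1, Akt2 and Foxo1. They were chosen by gene symbol from a table of normalized read counts, in which all 10 were found among 14651 genes. RNA was sequenced from brown adipose tissue (BAT), the heat-producing fat depot, of 23 individual male C57BL/6 mice aged 8 to 12 weeks. Of the controls, 6 were at room temperature (RT) and 5 had been placed at 4°C for 6 h, and of the BAT-Mcu-KO mice 6 were studied under each condition. Both genotypes were homozygous for an Mcu allele with LoxP sites around exon 2, and BAT-Mcu-KO mice also carried Cre recombinase driven by the Ucp1 promoter, so that deletion was limited to cells in which that promoter had been active (BAT-Mcu-KO mice are also called knockouts here, and control mice controls). Mcu encodes the pore of the mitochondrial calcium uniporter. Control mice lacked the transgene, so effects of Mcu loss and of the transgene cannot be told apart. Mice at 4°C were housed singly, without bedding and by default without food, and whether food was present at RT over the same hours is not given in the sources used here, so an effect of cold and one of food or housing cannot be told apart. The questions were how cold and loss of Mcu each altered the levels of these 10 genes, and whether the effect of cold depended on genotype.

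As background, insulin binds its receptor on the adipocyte surface, and the receptor phosphorylates adaptor proteins of the IRS family, which recruit phosphoinositide 3-kinase (PI3K). PI3K makes the membrane lipid PIP3, to which the kinase AKT is drawn and at which it is activated, and AKT in turn drives glucose uptake and lipid synthesis and holds the transcription factor FOXO1 out of the nucleus. In brown fat the pathway promotes differentiation, glucose uptake and lipid storage, while adrenergic signals released in the cold drive lipid breakdown and heat production.

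Cold moved most of these transcripts, and in opposite directions. In both genotypes the adaptor Irs2 rose over 5-fold, the receptor Insr, the catalytic subunit Pik3ca and the transcription factor Foxo1 rose less, and the regulatory subunit Pik3r1, the kinase Akt2 and the growth factor Igf1 fell. Irs1 and Akt1 were called higher in controls and missed the threshold in knockouts, but neither was called by the test of the difference between genotypes, and Igf1r was not called changed. No member was called changed by Mcu loss at either temperature.

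The promoters of the genes with the largest rise and the largest fall, Irs2 and Pik3r1, are shown because those genes moved furthest, in opposite directions, and set all mice at 4°C apart from those at RT. Each is the stretch of 250 bases before a RefSeq start on GRCm38.p6, printed 5′ to 3′ on the minus strand of the gene, and capitals mark a match to one of the motifs searched. For Irs2 the window is chr8:11008930-11009179, upstream of the annotated gene, and its capitals mark the E-box CACGTG, 44 bases before the start. Pik3r1 has 2 RefSeq starts, the upstream window at chr13:101768218-101768467 bordering the annotated gene and the internal one at chr13:101692631-101692880 lying within it. Capitals in the internal window mark the CRE half-site TGACG on the reverse strand, 35 bases before the start.
Irs2: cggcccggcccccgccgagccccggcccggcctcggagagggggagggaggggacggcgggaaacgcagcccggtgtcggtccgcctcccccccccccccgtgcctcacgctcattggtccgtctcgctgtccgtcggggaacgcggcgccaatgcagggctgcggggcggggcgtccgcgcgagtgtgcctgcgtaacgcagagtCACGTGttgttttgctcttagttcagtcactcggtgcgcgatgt
Pik3r1, upstream start: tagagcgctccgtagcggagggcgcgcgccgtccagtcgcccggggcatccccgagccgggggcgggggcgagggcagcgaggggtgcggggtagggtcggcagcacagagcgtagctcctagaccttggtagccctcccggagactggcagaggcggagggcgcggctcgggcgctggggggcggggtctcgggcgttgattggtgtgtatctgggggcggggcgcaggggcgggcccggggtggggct
Pik3r1, internal start: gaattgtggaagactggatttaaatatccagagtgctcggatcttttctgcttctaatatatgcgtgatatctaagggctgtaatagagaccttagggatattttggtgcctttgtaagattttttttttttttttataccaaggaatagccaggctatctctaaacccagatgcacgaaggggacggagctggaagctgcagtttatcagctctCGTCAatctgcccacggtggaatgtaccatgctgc
The Irs2 window and the upstream Pik3r1 window are GC-rich (72.8% and 76.4% GC), whereas the internal Pik3r1 window is 42.4% GC, against a median of 52.4% over 32851 promoters. Windows were found for 9 of the 10 genes, 14 in all, and both strands were searched. No window held the cAMP response element TGACGTCA, present in 1.55% of all promoters, or the ATF4 site TGATGCAA, present in 0.792%. The half-site TGACG, which is part of the cAMP response element and occurs in 17.8% of all promoters, was in the Irs1 window, the internal Pik3r1 window and 2 of the 4 Akt2 windows. CACGTG, in 6.02% of promoters, was in the Irs1 and Irs2 windows (in Irs1 it shares 2 bases with the half-site), and the FOXO site TGTTTAC, in 3.17%, was in 1 of the 2 Akt1 windows. A match describes letters only. The window of Irs2, which rose, and 2 of the 4 windows of Akt2, which fell, hold matches to different motifs. The window of Irs1, called higher in controls, holds both of these motifs, so they do not divide the genes by direction.

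As a check of the genotype labels, Mcu ran from 81.4 through a median of 107 to 136 in controls at RT and from 15.2 through a median of 38.1 to 42.4 in knockouts at RT. At 4°C it was 70.8, 86.5, 127, 132 and 118 in controls and ran from 24.0 through a median of 36.3 to 39.9 in knockouts. Every knockout mouse was below every control mouse (log2 fold change -1.66 ± 0.22 (SE), adjusted p = 1.00e-03 at RT and -1.61 ± 0.23 (SE), adjusted p = 0.00367 at 4°C, limma). Values are normalized counts, the reads of a gene divided by a size factor of the sample. Sequencing depth was 7129271 to 21006347 reads per sample over the genes of the table. The 6 brown adipocyte markers (Ucp1, Cidea, Adipoq, Pparg, Fabp4 and Plin1) were all present, and their summed normalized count was apart by temperature, at 178521 to 248604 and 258845 to 314425 in controls at RT and 4°C and 177168 to 199085 and 269846 to 303731 in knockouts. Of these 6, Ucp1, Pparg and Plin1 were called higher by cold and Cidea and Adipoq lower in controls, and Ucp1 and Pparg higher in knockouts, with Ucp1 at log2 changes of 1.37 and 1.47. The part of this shift in the cold changes given here was not tested. The 7 skeletal muscle markers, all present, were summed to 24.8 to 5946 in controls at RT, 6.22 to 30385 in controls at 4°C, 17.7 to 43279 in knockouts at RT and 44.2 to 8095 in knockouts at 4°C, with 6, 2, 3 and 6 libraries, in that order, under 10000. Summed macrophage markers (6 of 6 present) were 631 to 943 and 743 to 1125 in controls at RT and 4°C and 457 to 863 and 993 to 1289 in knockouts, and summed white adipocyte markers (3 of 3) 586 to 1088 and 323 to 518, and 516 to 1733 and 433 to 774. The white adipocyte markers did not move together. At 4°C Lep was below all mice at RT in both genotypes, and Retn overlapped in both. Agt was above all mice at RT in every control and in 5 of 6 knockouts at 4°C. The 6 stromal markers overlapped between all groups, and 0 of 3 hepatocyte markers were in the table. In bulk tissue, fewer cells of a type and less RNA per cell cannot be told apart.

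**Figure D1:**
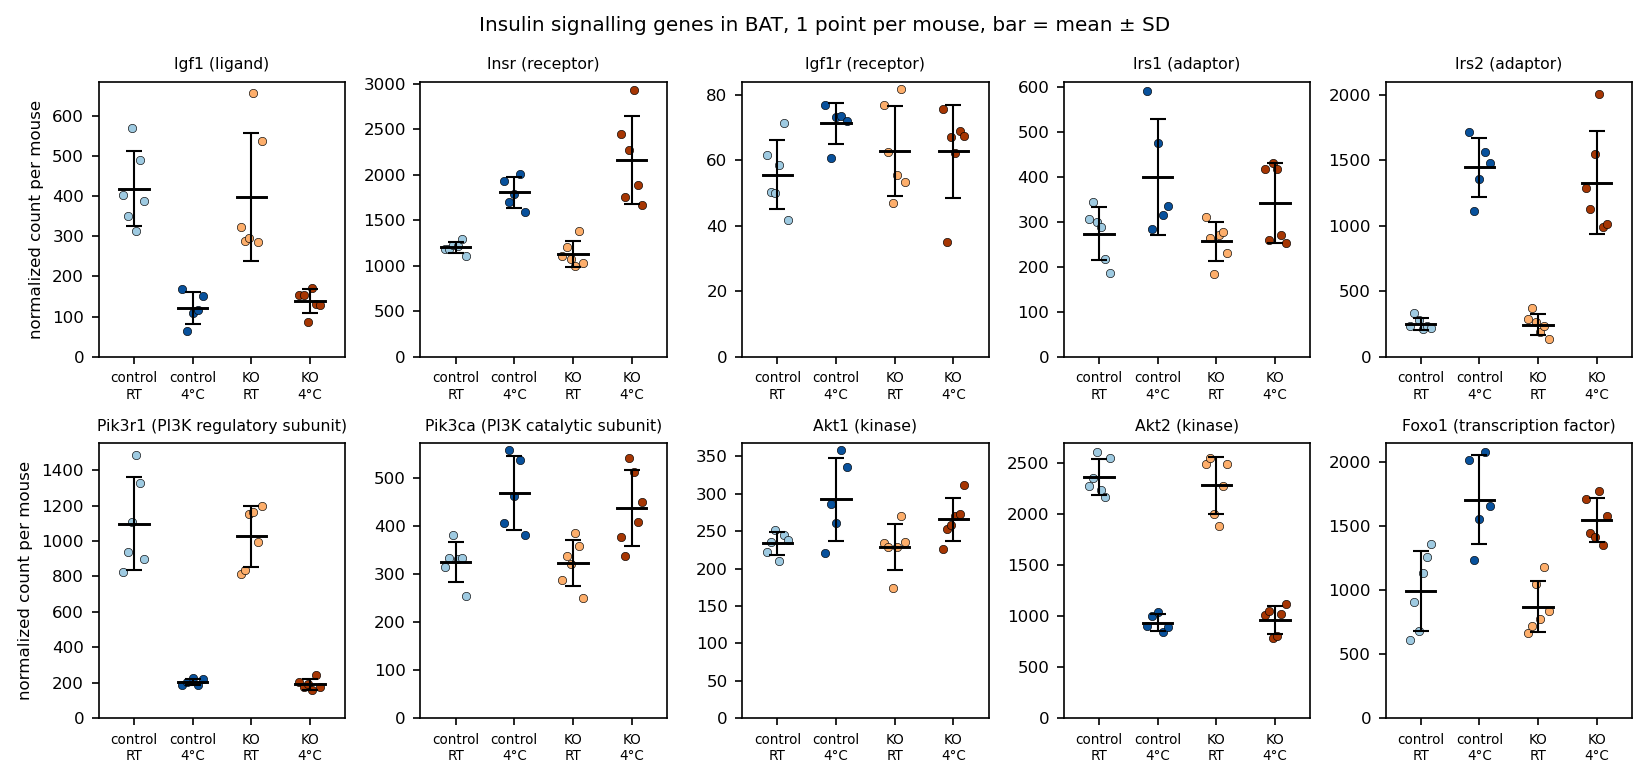
Normalized count (linear y axis from 0) of each of the 10 genes in every mouse (points) of the 4 groups on the x axis, with the mean and SD as bars. Irs2 rises from 212 to 335 in controls at RT to 1112 to 1713 at 4°C, Pik3r1, Akt2 and Igf1 fall without overlap in both genotypes, and control and knockout points overlap in every panel at the same temperature.

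The first comparison asked what 6 h at 4°C did to the pathway in controls. The threshold for a call was an adjusted p under 0.05 (limma on log2(normalized count + 1), Benjamini-Hochberg over 14651 genes). By that rule 9 of the 10 genes were called, against 46.0% of all genes tested, 6 of them higher (22.3% of all genes) and 3 lower (23.7%). The median log2 fold change of the 10 was 0.44, against -0.02 over all genes. The 10 genes were chosen with earlier results of these data known, so their excess over all genes is not a test of the pathway. In knockouts 7 of the 10 were called (43.3% of all genes), 4 higher (21.4%) and 3 lower (21.9%), with a median log2 fold change of 0.31. These 7 were all called in the same direction in controls. For 3 genes higher and 3 lower the groups at RT and 4°C did not overlap in controls, against 25.2% of all genes, and the numbers were the same in knockouts, against 24.2% of all genes.

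Irs2 showed the largest rise. It encodes the insulin receptor substrate that, with IRS1, links the receptor to PI3K, and lies at chr8:10984681-11008458 (GRCm38, minus strand). In controls its normalized count ran from 212 through a median of 233 to 335 at RT and was 1713, 1112, 1362, 1562 and 1481 in the 5 mice at 4°C. In knockouts it ran from 133 through a median of 249 to 370.4 at RT and from 991 through a median of 1210.2 to 2009 at 4°C. All values at 4°C exceeded those at RT within each genotype. Among mice at 4°C, 1 knockout was above all controls and 2 were below all of them. On the log2 scale the rise was 2.51 ± 0.20 (SE), adjusted p = 2.67e-10, in controls, a 5.70-fold change (95% CI 4.27 to 7.61). In knockouts it was 2.46 ± 0.19 (SE), adjusted p = 1.84e-10, or 5.48-fold.

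Irs1, the other adaptor, changed far less. It lies at chr1:82233101-82291416 (GRCm38, minus strand), and 30.9% of its exonic bases are shared with the predicted gene Gm9747, so reads there could not be assigned by strand. In controls its normalized count ran from 187 through a median of 294 to 344 at RT and was 593, 284, 475, 315 and 336 at 4°C. The groups overlapped, with only 2 of 5 mice at 4°C above the range at RT. The rise of 0.52 ± 0.20 (SE), adjusted p = 0.0335, was lost without any 1 of 4 mice: control at RT 5 or 6, or control at 4°C 1 or 3 (adjusted p 0.0722 to 0.132). In knockouts Irs1 ran from 185 through a median of 268 to 312 at RT and from 254 through a median of 345 to 431 at 4°C, a log2 difference of 0.39 ± 0.19 (SE), adjusted p = 0.0970. Counted per kb of exon, Irs2 made up 57.4% ± 4.64 (SD, n = 6) of the summed Irs1 and Irs2 level in controls at RT and 84.1% ± 3.31 (n = 5) at 4°C. In knockouts the shares were 57.0% ± 8.82 at RT and 84.7% ± 2.01 at 4°C (n = 6 each). The ranges of these shares at RT and 4°C did not overlap in either genotype. Irs3, an IRS gene outside the 10, is not counted in them. Its mean per kb was 133 in controls at RT, against 40.1 for Irs2 and 30.0 for Irs1, and 16.6 at 4°C. In knockouts Irs3 was at 107 per kb at RT and 20.3 at 4°C. Lengths include the Irs1 bases shared with Gm9747, and what that does to the Irs1 level per kb was not tested.

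Pik3r1 showed the largest fall. It encodes the p85α regulatory subunit of PI3K and its shorter forms, which hold the catalytic subunit and dock it on IRS proteins, and lies at chr13:101680563-101768217 (GRCm38, minus strand). In controls its normalized count ran from 824 through a median of 1021 to 1486 at RT and was 186, 205, 225, 188 and 222 at 4°C. In knockouts it ran from 813 through a median of 1072 to 1195 at RT and from 160.1 through a median of 185 to 246 at 4°C. The lowest mouse at RT was over 3 times the highest mouse at 4°C in both genotypes. The log2 change was -2.38 ± 0.14 (SE), adjusted p = 1.95e-12, in controls, leaving 0.192 of the RT level, and -2.41 ± 0.14 (SE), adjusted p = 7.53e-13, for knockouts, leaving 0.189. The levels at 4°C rest on 92 to 318 reads per mouse.

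Pik3ca, which encodes the catalytic subunit p110α, moved the other way. In controls its normalized count ran from 255 through a median of 333 to 382 at RT and was 407, 558, 463, 538 and 382 at 4°C, where every value was above those at RT, the closest pair being 382.2 and 382.5. In knockouts it ran from 251 through a median of 331 to 385 at RT and from 339 through a median of 429 to 542 at 4°C, with 4 of 6 mice above the range at RT. The rise was 0.52 ± 0.13 (SE), adjusted p = 0.00253, for controls and 0.43 ± 0.13 (SE), adjusted p = 0.00835, for knockouts. Among libraries with a muscle sum under 10000, 2 of them controls at 4°C, the control rise was 0.42 with an adjusted p of 0.0650. Per kb of exon, the summed regulatory subunits Pik3r1, Pik3r2 and Pik3r3 were 3.62 ± 0.360 times (SD) the summed catalytic subunits Pik3ca, Pik3cb and Pik3cd in controls at RT and 0.975 ± 0.177 times at 4°C. In knockouts the ratios were 3.93 ± 0.840 at RT and 1.13 ± 0.183 at 4°C, again without overlap between temperatures. Pik3r1 itself went from 57.9% ± 4.60 to 33.9% ± 3.98 of the regulatory transcripts in controls, and from 54.5% ± 7.40 to 28.9% ± 3.61 in knockouts.

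Akt2 fell and Akt1 did not. AKT2 is the AKT isoform most tied to insulin-driven glucose uptake in fat, whereas AKT1 is more tied to growth. The normalized count of Akt2 (chr7:27591552-27640826, GRCm38, plus strand) in controls ran from 2166 through a median of 2314 to 2605 at RT and was 900.1, 1006, 1042, 848 and 892 at 4°C. In knockouts it ran from 1887 through a median of 2381 to 2544 at RT and from 784 through a median of 1019 to 1117 at 4°C, so that the groups were apart in both genotypes. The log2 change was -1.33 ± 0.10 (SE), adjusted p = 8.17e-11, for controls and -1.24 ± 0.10 (SE), adjusted p = 1.26e-10, for knockouts. Akt1 ran from 210.0 through a median of 237 to 252 in controls at RT and was 220.5, 287, 261, 358 and 335 at 4°C, with 4 of 5 mice above the range at RT. In knockouts it ran from 174 through a median of 232 to 270.5 at RT and from 226 through a median of 265 to 312 at 4°C, with overlap. The log2 difference of Akt1 was 0.30 ± 0.12 (SE), adjusted p = 0.0417, for controls and 0.22 ± 0.12 (SE), adjusted p = 0.128, for knockouts. The Akt1 call in controls was lost without any 1 of 7 mice, namely control at RT 1, 2, 4 or 6 or control at 4°C 2, 4 or 5 (adjusted p 0.0521 to 0.146), and the difference was 0.04 among the libraries low in muscle markers. Per kb of exon, Akt2 went from 85.3% ± 0.893 to 64.9% ± 5.60 of the summed Akt1 and Akt2 level in controls and from 85.1% ± 1.89 to 67.5% ± 3.64 in knockouts, with no overlap between RT and 4°C in either genotype.

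**Figure D2:**
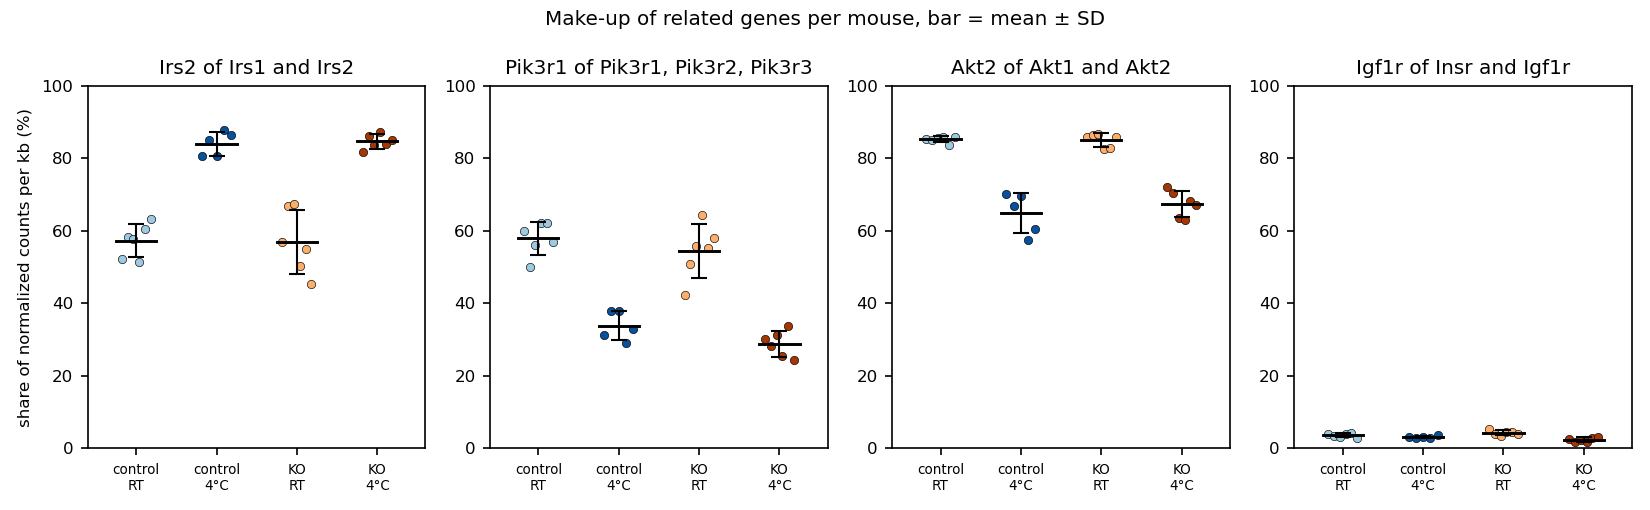
Share (y axis, % of normalized counts per kb of exon, 0 to 100) of Irs2, Pik3r1, Akt2 and Igf1r among the genes named above each panel, per mouse (points) in the 4 groups with mean and SD as bars. Irs2 rises from 57.4% to 84.1% and Akt2 falls from 85.3% to 64.9% in controls, while Igf1r is at 5.37% or less in every mouse. Irs3 is not counted in the Irs2 panel.

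Of the receptors, Insr rose and Igf1r was not called. The insulin receptor gene (chr8:3122061-3279617, GRCm38, minus strand) ran from 1110.3 through a median of 1201 to 1297 in controls at RT and was 1932, 1704, 1793, 2008 and 1589 at 4°C. In knockouts it ran from 994 through a median of 1091 to 1383 at RT and from 1670.2 through a median of 2079.9 to 2928 at 4°C. Groups at RT and 4°C were apart in both genotypes, and 3 of the 6 knockouts at 4°C were above all controls at 4°C. The rise was 0.58 ± 0.12 (SE), adjusted p = 1.81e-04 (1.50-fold), for controls and 0.91 ± 0.11 (SE), adjusted p = 2.48e-07 (1.88-fold), for knockouts. Igf1r, the receptor for insulin-like growth factor 1, was the lowest of the 10 genes, running from 41.7 through a median of 54.6 to 71.4 in controls at RT and 76.9, 60.7, 73.4, 73.5 and 72.2 at 4°C, a log2 difference of 0.37 ± 0.19 (SE), adjusted p = 0.113. In knockouts it ran from 47.0 through a median of 59.1 to 81.8 at RT and from 35.1 through a median of 67.3 to 75.6 at 4°C, a difference of -0.01 ± 0.18 (SE), adjusted p = 0.957 (95% CI -0.38 to 0.35). Its values rest on 38 to 115 reads per mouse, and all its groups overlapped. Per kb, Igf1r made up 3.63% ± 0.516 of both receptors in controls at RT and 3.14% ± 0.298 at 4°C, against 4.33% ± 0.642 and 2.38% ± 0.633 in knockouts.

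Igf1, which encodes the growth factor that binds Igf1r, fell. At chr10:87858265-87937042 (GRCm38, plus strand), it ran from 314 through a median of 395 to 570.1 in controls at RT and was 168, 65.3, 108, 116 and 151 at 4°C. In knockouts it ran from 285 through a median of 309.8 to 656 at RT and from 86.3 through a median of 143 to 172 at 4°C. All mice at 4°C were below all mice at RT, and 2 knockouts at RT, at 536 and 656, stood above the other 4. The log2 change was -1.82 ± 0.24 (SE), adjusted p = 7.87e-07, in controls (0.284 of the RT level) and -1.47 ± 0.23 (SE), adjusted p = 8.97e-06, for knockouts (0.362).

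Foxo1, which encodes a transcription factor that AKT keeps out of the nucleus, rose. It lies at chr3:52268336-52353221 (GRCm38, plus strand) and shares 7.78% of its exonic bases with Gm20402. Its normalized count ran from 613 through a median of 1019 to 1362 in controls at RT and was 2011, 1232, 1552, 2073 and 1657 at 4°C, with 1 mouse within the range at RT. In knockouts it ran from 662 through a median of 807 to 1178 at RT and from 1353 through a median of 1512 to 1775 at 4°C, without overlap. The rise was 0.82 ± 0.18 (SE), adjusted p = 6.71e-04, for controls and 0.85 ± 0.17 (SE), adjusted p = 3.00e-04, for knockouts. RNA levels say nothing of its phosphorylation or location.

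The summed count of 5 endothelial markers was also apart by temperature, at 2713 to 4107 and 2949 to 3867 at RT in controls and knockouts and 4835 to 7626 and 4508 to 6381 at 4°C. Its members did not move together: Pecam1 (log2 changes of 0.93 in controls and 0.84 in knockouts) and Kdr (1.16 and 1.11) rose in both genotypes, Emcn fell by 0.42 in controls and was at 0.01 in knockouts, and Cdh5 (0.35 and 0.05) and Tek (0.01 and -0.14) were not called. This sum, carried mostly by Pecam1 and Kdr, was also used as a covariate, which cannot be told apart from cold in this design. With it, Irs2 remained called higher and Pik3r1, Akt2 and Igf1 lower in both genotypes. Of the 10 genes, 4 were called in controls and 5 in knockouts. Over all 14651 genes the calls fell too, from 6735 to 2896 in controls and from 6349 to 3059 in knockouts. Insr had a log2 difference of 0.18 (adjusted p = 0.517) in controls but was the fifth gene called in knockouts, at 0.55 (adjusted p = 0.0159). Pik3ca was at 0.20 in controls and 0.14 in knockouts, and Foxo1 at 0.71 (adjusted p = 0.130) in controls and 0.75 (adjusted p = 0.0740) in knockouts. The parts of macrophage and white adipocyte RNA in these differences were not tested.

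The order of the members by level, in normalized counts per kb of exon, changed with these shifts. In controls at RT Akt2 stood alone at 332 ± 24.7 (SD, n = 6), above Foxo1, Pik3r1 and Insr (114, 109 and 87.5), whose ranges overlapped. Akt1 at 57.0 ± 3.75 was below Insr without overlap, and Igf1, Irs2, Pik3ca and Irs1 followed between 42.3 and 30.0, each overlapping its neighbours. Igf1r was lowest at 3.31 ± 0.623, apart from all others. At 4°C Irs2 came first at 229 ± 35.8 (n = 5), overlapping Foxo1 at 197 ± 39.9, and Akt2 and Insr followed at 132 and 131 with overlap. Pik3r1 had dropped to 20.4 ± 1.82, below Akt1, Pik3ca and Irs1 and above Igf1 (12.3 ± 4.03), with no overlap on either side. In knockouts the order at RT differed only in Pik3r1 and Foxo1 changing places, and at 4°C only in Insr and Akt2 doing so, in each case with overlapping ranges.

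The second comparison asked whether loss of Mcu altered these genes. None of the 10 was called at RT, where 0.0478% of all genes were, and none at 4°C, where 0.0751% were (limma). None had an unadjusted p under 0.05 at either temperature, against 754 and 1023 of all genes, and edgeR and DESeq2 on the recovered reads also called 0. The log2 fold changes (knockout minus control) lay between -0.16 (Foxo1) and 0.17 (Igf1r) at RT and between -0.22 (Igf1r) and 0.23 (Insr) at 4°C. Controls and knockouts overlapped for all 10 genes at both temperatures, where only 0.218% of all genes at RT and 0.683% at 4°C did not overlap. The intervals set how large a difference could have gone unseen. For Akt2, the most precise, the 95% CI was -0.25 to 0.14 at RT and -0.17 to 0.24 at 4°C, and for Igf1, the least precise, -0.60 to 0.33 and -0.27 to 0.71. For Irs2 the intervals were -0.49 to 0.30 and -0.57 to 0.26, and for Pik3r1 -0.36 to 0.20 and -0.40 to 0.19. Insr at 4°C came nearest to a difference, at 0.23 ± 0.12 (SE, 95% CI -0.003 to 0.47, limma adjusted p = 0.714).

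The third comparison asked whether the response to cold differed by genotype. No member was called by the interaction term, for which 0.00% of all genes were called by limma, with 878 of all genes and 0 members at an unadjusted p under 0.05. EdgeR called 0 of all genes and DESeq2 28, in neither case a member. The interaction, the cold change in knockouts minus that in controls, was -0.06 (95% CI -0.63 to 0.52) for Irs2, -0.02 (-0.43 to 0.38) for Pik3r1 and 0.09 (-0.19 to 0.38) for Akt2. The smallest p was that of Insr, at 0.33 ± 0.16 (SE, limma adjusted p = 0.832), where the rise was larger in knockouts. Igf1r had the largest negative value, -0.38 (adjusted p = 0.869), and Igf1 the largest positive one, 0.35 (adjusted p = 0.899). For Irs1 and Akt1, called by cold in controls alone, the interactions were -0.13 and -0.08 (adjusted p = 0.960 and 0.956).

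**Figure D3:**
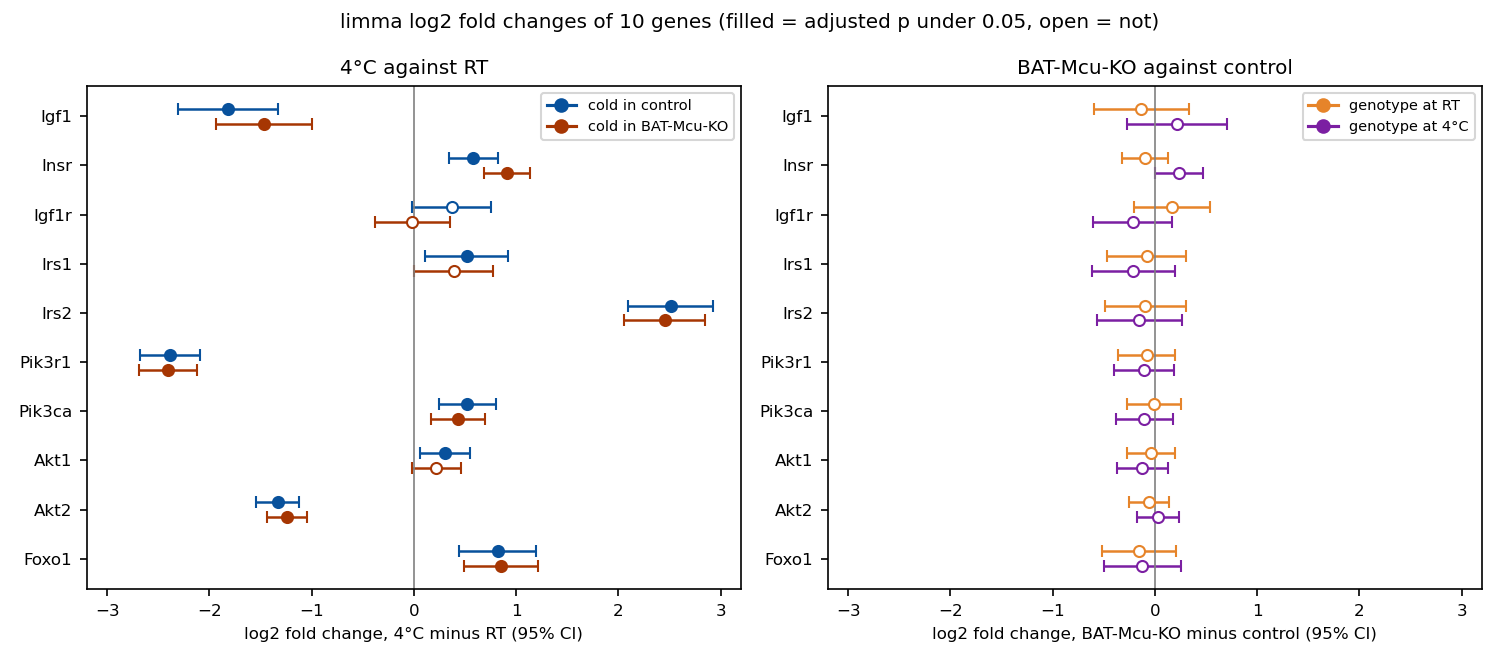
Log2 fold change (x axis, with 95% CI as bars) of the 10 genes by cold in each genotype (left) and by genotype at each temperature (right), on the same x range, with filled points for an adjusted p under 0.05. By cold Irs2 lies near 2.5 and Pik3r1 near -2.4 in both genotypes, while all genotype differences lie between -0.22 and 0.23 and no point there is filled.

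The rest of the pathway was described by lists of 97 further genes, of which 90 were in the table. At 4°C 26 of them rose and 23 fell in controls, and 22 rose and 26 fell in knockouts, with median log2 changes of 0.08 and 0.05, against -0.02 over all genes in both. These are 28.9% and 25.6% of the 90 in controls, beside 22.3% and 23.7% of all genes, and 24.4% and 28.9% in knockouts, beside 21.4% and 21.9%, so the lists as a whole were near the background. Upstream of the receptors, 1 of 8 IGF ligands, decoy receptors and binding proteins rose and 3 fell in each genotype. Igfbp5, an IGF-binding protein, fell by 1.94 in controls and 1.53 in knockouts on the log2 scale, and Igfals, which holds IGF in a ternary complex, fell by 1.68 and 1.39. Of 10 other receptor adaptors, 1 rose and 2 fell in each genotype. Irs3, a rodent adipose member of the IRS family, fell by 3.09 ± 0.26 in controls (adjusted p = 4.24e-10) and 2.43 ± 0.24 in knockouts, its mean normalized count going from 311 ± 57.9 to 38.8 ± 23.3 in controls. Gab1, a docking protein of receptor tyrosine kinases, fell by 1.29 and 1.50. Irs2 thus rose while the related Irs3 fell in the same mice.

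Of 8 inhibitors of the receptor and of IRS proteins, 3 rose and 1 fell in controls and 1 rose and 1 fell in knockouts. The lists in this paragraph stand beside 22.3% of all genes called higher and 23.7% lower in controls, and 21.4% and 21.9% in knockouts. Socs2, a suppressor of cytokine and growth hormone signalling, rose by 3.02 ± 0.25 in controls (adjusted p = 3.40e-10) and 2.82 ± 0.24 in knockouts, from 153 ± 59.9 to 1179 ± 207 normalized counts in controls. Grb14, an adaptor that inhibits the insulin receptor kinase, fell by 0.91 and 1.28. Among 8 other PI3K subunits and regulators, 1 rose and 3 fell in controls and 1 rose and 2 fell in knockouts. The regulatory subunit Pik3r2 fell by 1.16 and 0.98, in the same direction as Pik3r1, and the adaptor Pik3ap1, at 0 to 31 reads per mouse, rose by 1.56 and 1.62. Of 6 phosphatases acting on PIP3 and related lipids, 2 rose and 2 fell in controls and 1 rose and 2 fell in knockouts, with Inpp4b at -1.48 and -1.46 and Inpp5k at -0.70 and -0.64.

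Of 11 AKT-related kinases, activators and inhibitors, 7 rose and 1 fell in controls and 7 rose and none fell in knockouts by limma, with median log2 changes of 0.60 and 0.49 (-0.02 over all genes). The 7 are 63.6% of the list, beside 22.3% and 21.4% of all genes called higher, and this difference was not tested. Sgk1, an AKT-related kinase that also depends on PI3K, rose by 1.74 ± 0.16 in controls and 1.79 ± 0.15 in knockouts, and Trib3, a pseudokinase that binds AKT and a target of the integrated stress response, by 1.54 ± 0.20 and 0.78 ± 0.19. The 7 that rose were the same in both genotypes and, named after their values were seen, included the activator Pdpk1 as well as Trib1 and Trib2, relatives of Trib3. Of 13 AKT substrates and genes of the mTORC1 arm, 4 rose and 3 fell in controls and 3 rose and 6 fell in knockouts, or 30.8% and 23.1% in controls, near the shares of all genes, and 23.1% and 46.2% in knockouts. Eif4ebp1, a repressor of translation held off by mTORC1, fell by 1.06 and 1.02, and Deptor, an mTOR inhibitor, by 0.69 and 0.68.

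Both other FOXO factors in the table were called, in opposite directions: Foxo3 rose by 0.92 in controls and 0.57 in knockouts, and Foxo4 fell by 1.11 and 0.69. Of 16 known FOXO target genes, 5 rose and 3 fell in controls and 5 rose and 4 fell in knockouts, with medians of 0.05 and 0.16. The shares, 31.2% and 18.8% in controls and 31.2% and 25.0% in knockouts, were near those of all genes (22.3% and 23.7%, and 21.4% and 21.9%). Pdk4, a kinase that inhibits pyruvate dehydrogenase, rose by 1.32 ± 0.14 and 1.03 ± 0.13, and Gabarapl1, of the autophagy machinery, by 1.10 ± 0.11 and 1.23 ± 0.10. In the other direction, Pck1 at 4°C was below all mice at RT in both genotypes, as were Cdkn1b and Sesn1 in controls. These genes that fell were named after their values were seen. The targets that rose in controls include Trim63 (4.47 ± 4.60 to 405 ± 442 normalized counts) and Fbxo32 (146 ± 25.8 to 386 ± 239), named after their values were seen, which are best known from skeletal muscle, and the summed muscle markers went from a median of 1555 in controls at RT to 10161 at 4°C. In knockouts that median went from 17130 to 3084, the other way, while Trim63 was at 51.6 ± 55.1 and 133 ± 75.5 (log2 difference 2.39, adjusted p = 0.0785) and Fbxo32 at 220.3 ± 93.2 and 252 ± 60.0 (0.27, adjusted p = 0.496), neither called. The part of muscle RNA in these differences was not tested. Of 8 insulin-induced metabolic genes, 1 rose and 4 fell in controls and 1 rose and 5 fell in knockouts, with medians of -0.64 and -0.80 (-0.02 over all genes). The share that fell was 50% and 62.5%, beside 23.7% and 21.9% of all genes, a difference that was not tested. Srebf1, which encodes the lipogenic transcription factor SREBP1, fell by 2.78 ± 0.16 in controls (adjusted p = 9.55e-13) and 2.60 ± 0.15 in knockouts. Acly, the enzyme that makes cytosolic acetyl-CoA, fell by 1.59 ± 0.51 and 1.75 ± 0.49. By genotype, 1 of the 90 genes was called, Cat, the gene of catalase, at 4°C with 0.58 ± 0.11 (SE), adjusted p = 0.0354.

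**Figure D4:**
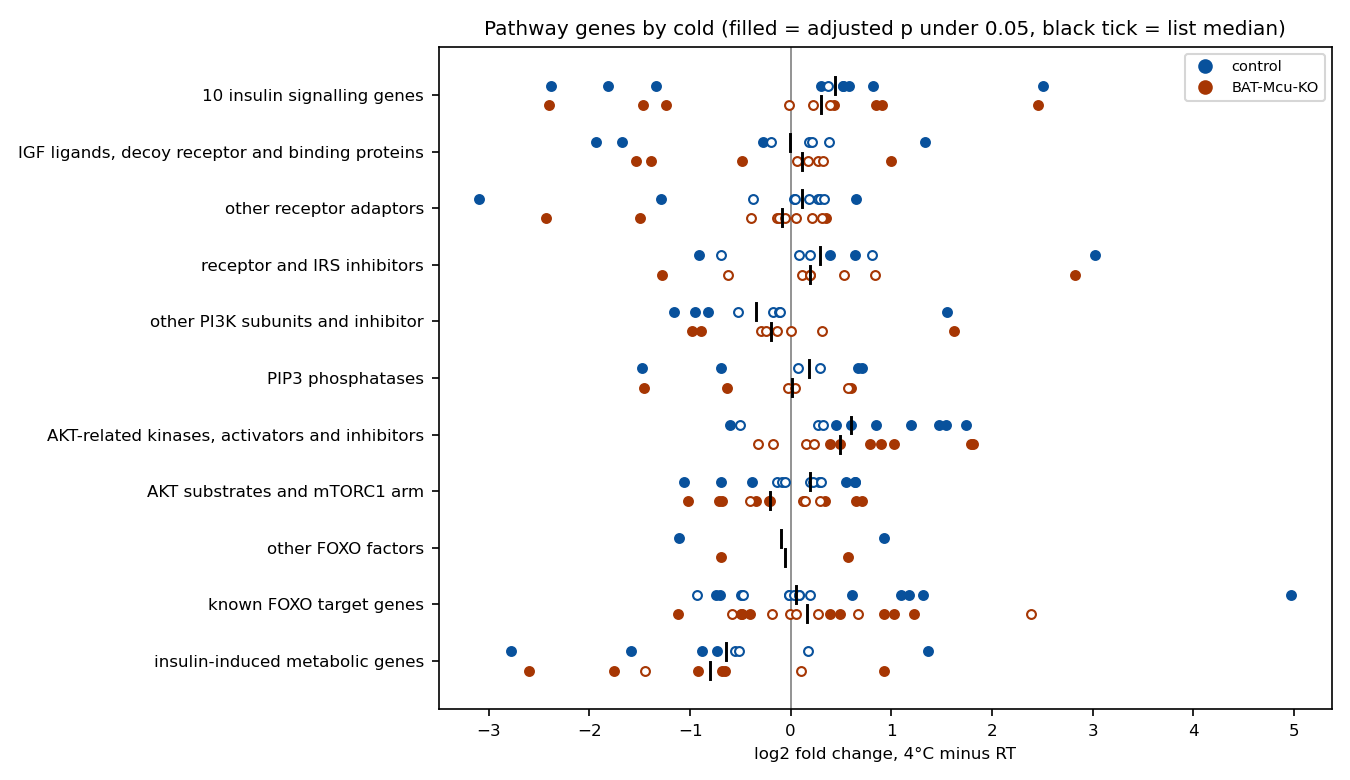
Log2 fold change by cold (x axis) of each gene (points) in the 10 insulin signalling genes and the other pathway lists (y axis), in control (blue) and knockout (brown) mice, with black ticks at the list medians and filled points for an adjusted p under 0.05. Points lie on both sides of 0 in every list, and medians run from -0.80 for insulin-induced metabolic genes in knockouts to 0.60 for the AKT list in controls.

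Across the 23 mice, on log2(normalized count + 1), the transcripts most like Irs2 were Plk3, Mafk and Hspa8 (Pearson r 0.979, 0.973 and 0.972), which fell to 0.65, 0.62 and 0.54 once group means were removed. Those most like Pik3r1 were Srebf1, Tspan18 and Klhdc7a (0.980, 0.972 and 0.971, and 0.46, 0.15 and 0.11 within groups), and those most like Igf1 were Psmb9, Ypel5 and Tspan4 (0.941, 0.939 and 0.936, and 0.63, 0.63 and 0.61 within groups). Among the members themselves Irs2 and Pik3r1 had an r of -0.97 over all mice and -0.53 within groups, and Insr and Irs2 one of 0.91 and 0.60. Pik3r1 and Akt2, which both fell, had an r of 0.95 over all mice and -0.15 within groups. These values describe the same 23 libraries, which share temperature, size factors and depth.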

How the data were processed

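Smart-seq2 libraries of BAT from 23 mice were read from both ends. The authors aligned the reads to mm10 (GENCODE M7) with STAR 2.4.0j, counted uniquely mapped reads within exons irrespective of strand with HTSeq, and kept a gene if 6 or more samples had 8 or more of its reads. The signal that the authors deposited is the count divided by a DESeq2 size factor (normalized count). A second deposited table, of the authors' own fold changes and p-values, was not used. Values were whole multiples of 1 read (100% within 0.1 of a whole number), which gave back the reads. The test was limma (version 3.58.1, R 4.3.3) with a variance trend on log2(normalized count + 1), a mean per group and all 23 samples, which understates changes of low genes. Genes were called at a Benjamini-Hochberg adjusted p under 0.05 over 14651 genes. The fit was also run on simulated counts in which all genes shared the same spread and few changed, unlike these data. No result here rests on that run. Each mouse is a separate animal.

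Alternatives were pseudocounts of 0.5 and 10, a minimum mean of 50, quantile and 75th percentile scaling, no trend, the compared groups alone, a replicate block, edgeR 4.0.16 and DESeq2 1.42.0 on the recovered reads, and each mouse left out. A muscle or endothelial covariate and the libraries low in muscle markers were added after seeing the data. Positions and exon lengths come from GENCODE M21 (GRCm38, 94.1% of genes found by symbol), and promoters from RefSeq (GRCm38.p6). The 10 genes and the lists were chosen with earlier results of these data known. One gene of the lists is not reported here. All 10 are named, as are, per list, the 2 genes with the largest absolute change among those called by cold in both genotypes in 1 direction, genes of the lists called by genotype, and the 3 genes most correlated with each of the 3 members that changed most. The 95% intervals are limma's. Read numbers cover counting error only, since PCR copies are not independent molecules.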

Additional observations from a re-analysis of the deposited data

Results flagged for a closer look

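In each of the 4 groups the lowest and highest mouse of each of the 10 genes was set against the others by Dixon's test at the 95% level on log2(normalized count + 1), which chance alone passes in about 1 in 20 groups, and 3 of 40 groups held such a mouse. Akt1 in BAT-Mcu-KO replicate 3 at RT was at 173.8 normalized counts, against 229 to 270.5 in the other 5 mice. Igf1r in control replicate 2 at 4°C was at 60.7, against 72.2 to 76.9 in the other 4. Igf1r in BAT-Mcu-KO replicate 2 at 4°C was at 35.07, against 62.2 to 75.6 in the other 5. On the normalized counts without the log, 1 of the 3, Igf1r in BAT-Mcu-KO replicate 2 at 4°C, was past the limit, with a gap of 0.670 of the range, and the other two were under it, at 0.573 of the range for Akt1 and 0.709 for Igf1r in controls.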

How the results depend on the processing

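Under 33 alternatives, all but those on muscle and endothelial markers, the calls by cold of Irs2, Pik3r1, Akt2, Igf1, Insr, Foxo1 and Pik3ca were kept in both genotypes, and with 1 mouse left out 7 to 9 members were called in controls (4 to 6 higher) and 7 in knockouts. Irs1 in controls lost its call under quantile scaling (adjusted p = 0.0861) and 75th percentile scaling (0.0837), and Akt1 under both (0.144 and 0.202) and with the compared groups alone (0.0748). 75th percentile scaling moved the median of all genes by cold in controls to -0.13, and under it Akt1 was at 0.20 and Irs1 at 0.41. With the replicate block 9 members were called by cold in controls and 7 in knockouts. Replicate numbers mark different animals, and the sources used here do not say that they pair the mice. Deviations of same-numbered mice correlated on average by -0.03 and -0.10 across temperatures in controls and knockouts. Across genotypes the averages were -0.04 at RT and 0.12 at 4°C, where r ran from 0.042 to 0.22 with 2 of 5 pairs over 0.1.

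With the endothelial covariate the members called by cold fell to 4 in controls, 1 of them higher, and those called higher in knockouts were 2. This covariate and temperature cannot be told apart. All genes called numbered 2896 instead of 6735 in controls and 3059 instead of 6349 in knockouts. Akt1 then changed sign to -0.050 in controls and -0.10 in knockouts, and Igf1r to -0.32 in controls, none of them called. Igf1r by cold in knockouts changed sign under quantile scaling (0.11) and ran from -0.091 to 0.14 with 1 mouse left out.

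Genotype differences that were not called also changed sign. At RT, among libraries low in muscle markers, Insr was at 0.032, Irs1 at 0.082, Irs2 at 0.22, Pik3ca at 0.016, Akt1 at 0.064 and Akt2 at 0.046, and Pik3ca was at 0.012 with the endothelial covariate. At 4°C Akt1 was at 0.14 and Akt2 at -0.017 among those libraries. With 1 mouse left out the ranges at RT were -0.19 to 0.0097 for Irs1, -0.23 to 0.066 for Irs2, -0.16 to 0.014 for Pik3r1, -0.080 to 0.059 for Pik3ca and -0.090 to 0.037 for Akt1, and at 4°C -0.010 to 0.091 for Akt2. All genes called by genotype numbered 3 to 20 at RT over the alternatives, against 7, and 1 to 23 at 4°C, against 11, and those called by the interaction 0 to 28. The cause of these shifts was not tested. Of the 10 genes, depth limits Igf1r most, at 38 to 115 reads per mouse.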
